A study of Mus musculus with 6 samples.

Results

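A group of 10 nuclear genes of cytochrome c oxidase was followed in whole hearts of mice at postnatal day 7. These were Cox4i1, Cox4i2, Cox6a1, Cox6a2, Cox6b1, Cox7a1, Cox7a2, Cox7a2l, Cox8a and Cox8b, chosen by symbol because they encode the subunits with tissue isoforms and their close relatives. All 10 were found by Ensembl identifier among 52550 mouse genes. All 10 had enough reads to be among the 14860 genes tested.

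The study deleted the glucocorticoid receptor in cardiomyocytes and asked how gene expression of the heart changes early after birth. Heart libraries, 3 from GR-cKO and 3 from control mice, were compared by 3′ mRNA sequencing. The labels give neither the Cre line, the exon removed, the strain nor the genotype of the controls. Libraries are labelled as biological replicates, with no statement of whether each is 1 animal. Tissue was whole heart, so cells other than cardiomyocytes, in which the receptor was not targeted, contribute to every value. In such bulk tissue fewer cells of a type and less RNA per cell cannot be told apart.

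Cytochrome c oxidase is complex IV of the respiratory chain, which passes electrons from cytochrome c to oxygen and pumps protons across the inner mitochondrial membrane. Its catalytic core is encoded in the mitochondrial genome, and nuclear subunits surround this core and tune it. Several nuclear subunits come as a ubiquitous form (Cox6a1, Cox7a2, Cox8a) and a form typical of heart and skeletal muscle (Cox6a2, Cox7a1, Cox8b). In rodents the heart replaces ubiquitous with muscle forms around and after birth, and Cox7a1 and Cox8b are also known from brown fat.

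The coding sequences of the subunit 7a and 8 pairs are printed because the isoform ratios rest on telling these genes apart. They come from the GENCODE M21 transcripts of GRCm38, and capitals mark the longest stretch that the members of a pair share.
Cox7a1: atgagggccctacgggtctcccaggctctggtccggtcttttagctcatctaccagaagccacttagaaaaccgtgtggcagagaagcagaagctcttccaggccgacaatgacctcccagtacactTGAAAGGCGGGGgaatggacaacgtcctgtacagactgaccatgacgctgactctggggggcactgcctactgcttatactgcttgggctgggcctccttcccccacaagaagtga
Cox7a2: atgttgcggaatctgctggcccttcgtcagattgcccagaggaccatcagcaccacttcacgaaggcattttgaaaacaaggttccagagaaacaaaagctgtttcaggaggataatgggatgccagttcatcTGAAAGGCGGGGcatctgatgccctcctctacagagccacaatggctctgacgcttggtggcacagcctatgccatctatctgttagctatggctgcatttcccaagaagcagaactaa
Cox8b: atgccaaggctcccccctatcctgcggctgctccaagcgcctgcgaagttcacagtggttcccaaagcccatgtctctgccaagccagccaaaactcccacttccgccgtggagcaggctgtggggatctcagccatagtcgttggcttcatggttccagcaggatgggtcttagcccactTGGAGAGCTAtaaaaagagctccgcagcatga
Cox8a: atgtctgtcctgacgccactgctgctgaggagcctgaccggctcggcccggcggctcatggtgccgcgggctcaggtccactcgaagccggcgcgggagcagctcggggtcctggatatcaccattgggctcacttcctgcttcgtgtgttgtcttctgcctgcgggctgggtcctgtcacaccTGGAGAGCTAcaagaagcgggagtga
Over aligned bases Cox7a1 and Cox7a2 were 64.5% identical and Cox8b and Cox8a 57.1%. The corresponding values were 65.3% for Cox6a2 and Cox6a1 and 69.8% for Cox4i2 and Cox4i1. Over whole transcripts, the longest identical run was 12 bases for Cox6a2 with Cox6a1 and for Cox7a1 with Cox7a2. It was 10 bases for Cox8b with Cox8a and 14 bases for Cox4i2 with Cox4i1.

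The genes lie on 7 chromosomes of GRCm38, with 4 of them on chromosome 7. There, Cox7a1 (ENSMUSG00000074218) spans 30184144 to 30186078 on the plus strand. Cox6b1 (ENSMUSG00000036751) spans 30616861 to 30626151, Cox6a2 (ENSMUSG00000030785) 128205435 to 128206387 and Cox8b (ENSMUSG00000025488) 140898945 to 140900446, all 3 on the minus strand. The ubiquitous forms lie elsewhere, with Cox6a1 (ENSMUSG00000041697) on chromosome 5 from 115345642 to 115348981 and Cox7a2 (ENSMUSG00000032330) on chromosome 9 from 79755361 to 79759878. Cox8a (ENSMUSG00000035885) is on chromosome 19 from 7215153 to 7217616 and Cox7a2l (ENSMUSG00000024248) on chromosome 17 from 83501918 to 83517330, each on the minus strand like Cox6a1 and Cox7a2. Cox4i1 (ENSMUSG00000031818) is on chromosome 8 from 120668222 to 120674207 and Cox4i2 (ENSMUSG00000009876) on chromosome 2 from 152754173 to 152765037, both on the plus strand. Cox6a2 lies wholly within Itgad of the opposite strand, which had at most 1 read in a library. Cox4i1 lies wholly within Gm20388 of the same strand, which also covers its 3′ end and had 0 reads in each library. Emc8 of the opposite strand, with 900 to 1294 reads in a library, overlaps Cox4i1 away from its 3′ end. Any reads of Cox4i1 or Cox6a2 left uncounted because they fit overlapping genes were not assessed. Among annotated transcripts, processed pseudogenes with at least 90% identity were found for Cox7a2l and Cox6a1. Those of Cox7a2l had 0 to 7 reads in a library. That of Cox6a1, AC148174.2, was 92.9% identical over 496 aligned bases and had no row among the counts. The Cox6a1 values, and the ratio of Cox6a2 to Cox6a1, are uncertain by any reads the copies share. Copies outside annotated transcripts were not searched for.

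Promoter letters of the subunit 8 pair are shown because the muscle and ubiquitous members differed in their content of CG dinucleotides, marked in capitals. They are the 250 bases before the gene start in RefSeq (GRCm38.p6), 5′ to 3′ on the strand of the gene, with Cox8b at chr7:140900447-140900696 and Cox8a at chr19:7217617-7217866, both minus strand.
Cox8b promoter: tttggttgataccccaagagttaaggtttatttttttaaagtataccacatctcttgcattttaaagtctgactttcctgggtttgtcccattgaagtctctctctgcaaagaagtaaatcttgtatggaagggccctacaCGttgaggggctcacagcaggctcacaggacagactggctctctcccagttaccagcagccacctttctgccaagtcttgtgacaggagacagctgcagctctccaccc
Cox8a promoter: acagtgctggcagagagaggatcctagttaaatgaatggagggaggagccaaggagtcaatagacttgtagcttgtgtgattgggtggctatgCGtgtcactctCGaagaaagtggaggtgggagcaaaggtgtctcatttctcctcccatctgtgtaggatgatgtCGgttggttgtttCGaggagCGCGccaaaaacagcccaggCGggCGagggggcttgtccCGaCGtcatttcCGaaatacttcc
Cox8b had 1 CG dinucleotide in this window and Cox8a had 11. Cox7a1, the other muscle form with an entry, had 4. The other ubiquitous forms and relatives with an entry had more, with 26 for Cox6a1, 14 each for Cox7a2 and Cox6b1 and 13 for Cox7a2l. The median over 32851 promoters was 6. The letters CCGGAAG, the core bound by ETS factors, were found on either strand before Cox6a1 and Cox6b1, against 6.91% of all promoters. The NRF1 motif was found before Cox6a1 at 2 positions (3.74% of all promoters), and the muscle E-box CAGCTG before Cox8b (13.0%). The letters AAGGTCA, bound by oestrogen-related receptors (4.08%), and the palindromic glucocorticoid response element (0.00913%) were in none of the 7 windows. Both strands were searched, the sites of different motifs did not overlap, and a match in letters is not a binding site.

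Libraries held 18135540 to 20988286 reads in GR-cKO hearts and 19209410 to 22999192 in controls. Values are CPM, read counts scaled to the summed reads of tested genes with TMM factors. A 3′ library gives about 1 read position per transcript, so CPM was compared between genes without division by length. Capture and assignment of reads can differ between genes and were not tested. This limits the order of levels and the isoform ratios as measures of transcript amounts. Nr3c1, the gene of the receptor, was at 57.6, 49.2 and 56.2 CPM in GR-cKO replicates 1, 2 and 3, against 114, 131 and 99.7 CPM in control replicates 1, 2 and 3. The groups did not overlap, and the log2 fold change of GR-cKO over control was -1.08 (edgeR adjusted p 0.00101), the only call of the table. Since the removed exon is not stated, whether the 3′ reads of Nr3c1 bear on it is unknown. The defining cardiomyocyte genes were abundant in every library. The 7 markers summed to 31903 to 41272 CPM in GR-cKO and 32620 to 34969 CPM in control hearts. A pair of libraries stood apart in other respects. GR-cKO replicate 3 gave 10.9% of its reads to Gm42418, a transcript overlapping ribosomal RNA sequence, against 5.47 to 7.69% in the other 5. In control replicate 2 the brown fat gene Ucp1 reached 89.3 CPM, against 0 to 18.8 CPM in GR-cKO hearts and 0.420 to 6.78 CPM in the other controls.

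No isoform gene passed the test between genotypes. Across the table the edgeR quasi-likelihood test, with Benjamini-Hochberg adjustment and a threshold of 0.05, called 0 of the 10, against 1 gene, or 0.00673%, of the 14860 tested. At an unadjusted p under 0.05 it also called 0 of the 10, where 2.13% of tested genes were lower, 2.07% higher and 4.2% either. Those lower numbered 316 and those higher 308, and this split moved to 361 and 170 with library totals and to 87 and 134 with spike-in scaling. DESeq2 and limma voom likewise called 0 of the 10, both with adjustment and at an unadjusted p under 0.05. The log2 fold change, GR-cKO over control, was negative for 8 and positive for 2 of the 10, with a median of -0.10. Over all tested genes 48.7% were negative and the median was 0.01. Among the 731 tested genes at least as abundant as Cox7a2l, 42.7% were negative and the median was 0.03. For the 9 abundant members, all but Cox4i2, fold changes ran from 0.884 to 1.09. Their 95% intervals reached no lower than 0.750-fold and no higher than 1.32-fold. All 9 intervals lay within a 1.5-fold change in either direction.

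**Figure D1:**
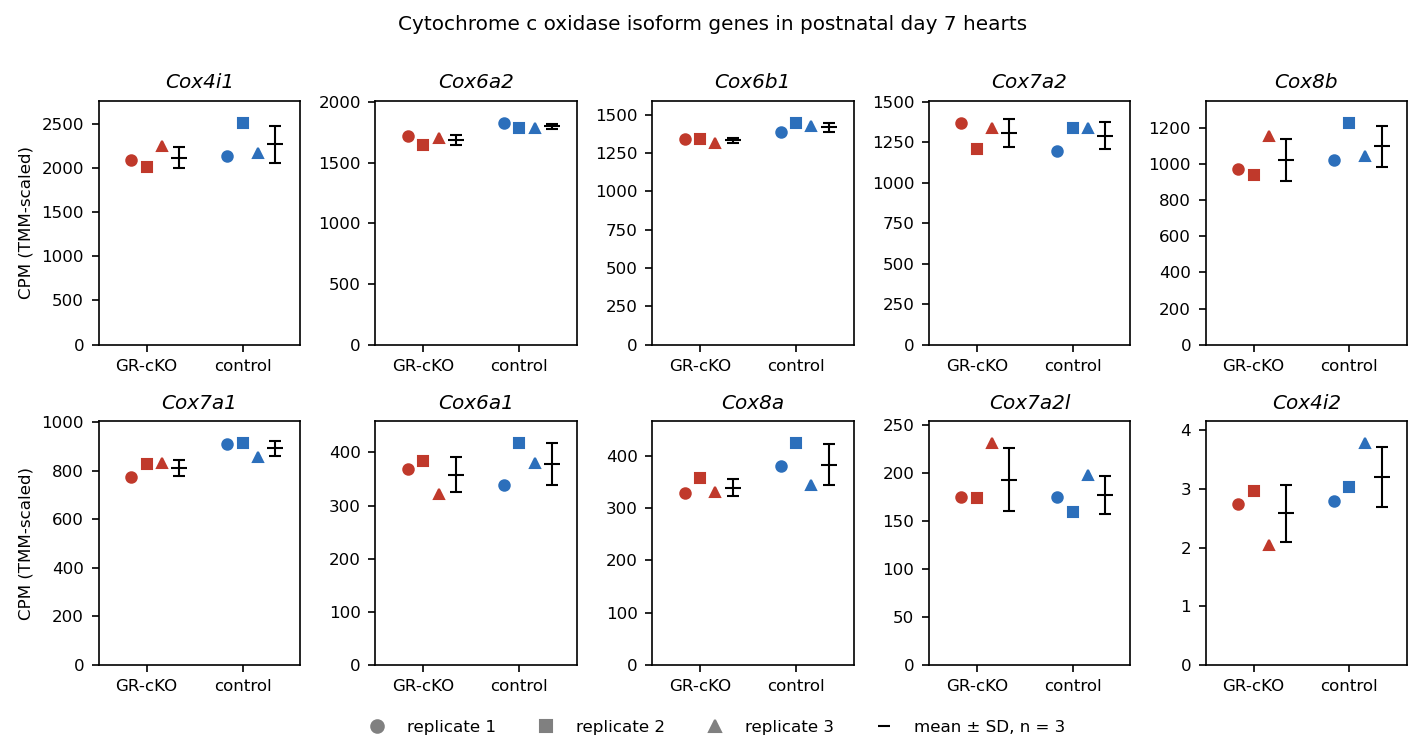
Level of each isoform gene in CPM (y axes, TMM-scaled, each starting at 0) in GR-cKO and control hearts. Symbols are libraries by replicate and bars are mean ± SD of 3 libraries. The GR-cKO libraries lie below the controls for Cox6a2, Cox6b1 and Cox7a1, and the groups overlap for the other 7 genes.

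Subunit 4 is the regulatory subunit whose matrix side binds ATP. Its ubiquitous form Cox4i1 was the most abundant of the 10 genes, at rank 36 of 14860. It was at 2091, 2005 and 2247 CPM in GR-cKO replicates 1, 2 and 3, against 2128, 2504 and 2162 CPM in control replicates 1, 2 and 3. The groups overlapped, with control replicate 2 the highest library. The means were 2114 ± 122 CPM in GR-cKO and 2265 ± 208 CPM in control hearts (SD, n = 3 each), giving a log2 fold change of -0.10 (95% interval -0.32 to 0.12).

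Cox4i2, the form known from lung and induced by low oxygen, was nearly absent beside it. It had 49, 63 and 38 reads in GR-cKO and 64, 59 and 72 reads in control replicates 1, 2 and 3. In CPM these were 2.74, 2.97 and 2.04 in GR-cKO hearts, against 2.80, 3.03 and 3.78 in controls, and the groups overlapped. Its log2 fold change was -0.31, but the interval ran from -1.06 to 0.44, which is 0.481-fold to 1.36-fold. Cox4i2 made up 0.123 ± 0.0292% of subunit 4 reads in GR-cKO and 0.142 ± 0.0284% in control hearts (SD, n = 3 each). The 5 lung markers summed to 1.06 to 3.28 CPM in GR-cKO and 0.437 to 0.892 CPM in control hearts, with 1 of them, Ager, tested. The surfactant gene Sftpc had 7, 3 and 43 reads in GR-cKO replicates 1, 2 and 3 and 0 reads in each control. Sftpb had 0 reads in each GR-cKO library and 5 reads in control replicate 2, and Ager had 9 to 20 reads in every library. Markers of mural cells, which also express Cox4i2, summed to 866 to 1139 CPM in GR-cKO and 976 to 1022 CPM in control hearts, with 2 positive and 7 negative log2 fold changes among 9 markers. The part of lung or mural cells in the Cox4i2 values was not tested.

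Subunit 6a binds adenine nucleotides in its muscle form. The muscle form Cox6a2 was at 1724, 1642 and 1702 CPM in GR-cKO replicates 1, 2 and 3, against 1826, 1788 and 1784 CPM in control replicates 1, 2 and 3. Every GR-cKO library was lower than every control, by a small margin. The means were 1689 ± 42.4 CPM in GR-cKO and 1799 ± 23.0 CPM in control hearts (SD, n = 3 each). In log2 terms the fold change was -0.09 with a 95% interval of -0.30 to 0.12, and edgeR gave an adjusted p of 0.998. The ubiquitous Cox6a1 was at 369.6, 383 and 321 CPM in GR-cKO and 339, 417 and 379 CPM in control replicates 1, 2 and 3. Its groups overlapped, and its log2 fold change was -0.08 (95% interval -0.33 to 0.17). With single libraries left out it ran from -0.15, without control replicate 1, to nearly 0 without control replicate 2 or GR-cKO replicate 3.

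Subunit 7a lies where complex IV meets complex III in respiratory supercomplexes. The muscle form Cox7a1 was at 772, 827 and 832 CPM in GR-cKO replicates 1, 2 and 3, against 908, 912 and 855 CPM in control replicates 1, 2 and 3. Again every GR-cKO library was below every control. The means were 810.4 ± 33.0 CPM in GR-cKO and 892 ± 31.5 CPM in control hearts (SD, n = 3 each). In log2 terms the fold change was -0.14 with a 95% interval of -0.35 to 0.08, and edgeR gave an adjusted p of 0.998. The ubiquitous Cox7a2 was at 1369, 1209.8 and 1342 CPM in GR-cKO and 1198, 1339 and 1339.7 CPM in control replicates 1, 2 and 3. These groups overlapped throughout, with the highest value in GR-cKO replicate 1 and the lowest in control replicate 1. The log2 fold change of Cox7a2 was 0.02 (95% interval -0.21 to 0.24). It was -0.02 when only library totals set the scale, and it was also negative when GR-cKO replicate 1, GR-cKO replicate 3 or control replicate 1 was left out.

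Cox7a2l, a relative of subunit 7a linked to the joining of complex III with complex IV, was less abundant. It was at 175, 173 and 231 CPM in GR-cKO replicates 1, 2 and 3, against 174, 159 and 198 CPM in control replicates 1, 2 and 3. The groups overlapped, and replicate 3 was the highest library of each group. Its log2 fold change was 0.12 (95% interval -0.15 to 0.40), and -0.02 without GR-cKO replicate 3.

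Subunit 8 is a small single-span subunit. The muscle form Cox8b was at 971, 941 and 1153 CPM in GR-cKO replicates 1, 2 and 3, against 1019.5, 1226 and 1046 CPM in control replicates 1, 2 and 3. The groups overlapped, with GR-cKO replicate 3 above 2 of the controls. The log2 fold change was -0.10 (95% interval -0.35 to 0.14), and -0.02 without control replicate 2. The ubiquitous Cox8a was at 329, 357 and 330.0 CPM in GR-cKO and 380.5, 424 and 345 CPM in control replicates 1, 2 and 3. With means of 339 ± 16.2 CPM in GR-cKO and 383 ± 39.5 CPM in control hearts (SD, n = 3 each), Cox8a had a log2 fold change of -0.18 (95% interval -0.41 to 0.06). That was the most negative value among the 9 abundant members, and edgeR gave it an adjusted p of 0.998.

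Subunit 6b joins the monomers of the dimeric complex, and Cox6b1 is its form outside the testis. It was at 1343, 1343 and 1315 CPM in GR-cKO replicates 1, 2 and 3, against 1386, 1445 and 1424 CPM in control replicates 1, 2 and 3. The GR-cKO libraries were all below the controls, and the replicates of a group lay close together. The means were 1334 ± 16.1 CPM in GR-cKO and 1418 ± 30.0 CPM in control hearts (SD, n = 3 each), giving a log2 fold change of -0.09 (95% interval -0.30 to 0.12), for which edgeR gave an adjusted p of 0.998.

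**Figure D2:**
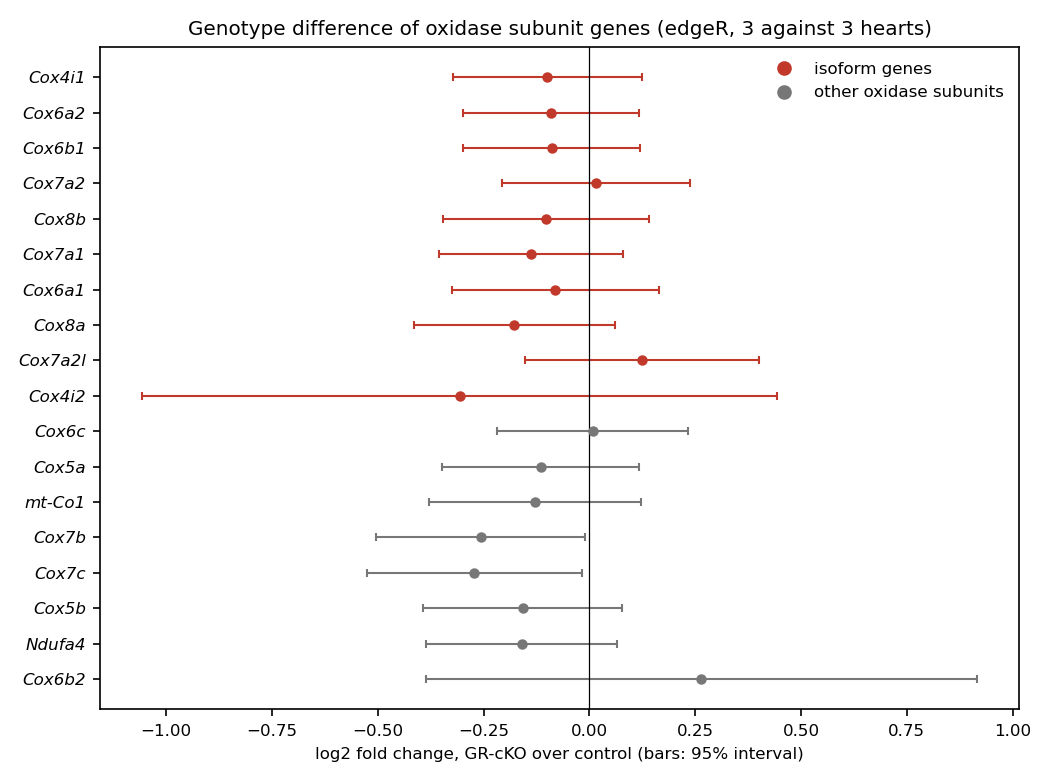
Log2 fold change of GR-cKO over control (x axis) for the 10 isoform genes in red and for the other tested oxidase subunits in grey. Bars are 95% intervals of the edgeR fit on 3 against 3 libraries. Intervals of all 10 isoform genes include 0, and that of Cox4i2 is the widest of these.

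In all, 3 of the 10 genes, Cox6a2, Cox6b1 and Cox7a1, had every GR-cKO library below every control, against 5.27% of tested genes. In the other direction it was 0 of the 10, against 4.7% of tested genes. Among the 731 tested genes at least as abundant as Cox7a2l, the share with every GR-cKO library below every control was 6.02%. The count depended on the scaling. With DESeq2 size factors it was the same 3 genes. With library totals it was Cox4i1 and Cox6a2, against 5.71% of genes. With spike-in scaling it was 0, against 2.31% of genes. Summed over the 10 genes, the level was 9168 ± 295 CPM in GR-cKO and 9705 ± 452 CPM in control hearts (SD, n = 3 each, exact permutation p = 0.2, 2-sided), and the groups overlapped. Without TMM scaling, as a share of mouse gene reads, the 10 genes took 0.904 ± 0.0428% in GR-cKO and 0.983 ± 0.0469% in control hearts (SD, n = 3 each, exact permutation p = 0.1, 2-sided, the smallest possible). On that measure the groups did not overlap, and the library with the lowest share was GR-cKO replicate 3, which had the most Gm42418 reads. The 5 macrophage markers summed to 70.1 to 82.9 CPM in GR-cKO and 65.5 to 68.4 CPM in control hearts, without overlap. Their log2 fold changes were 3 positive and 2 negative, and each marker overlapped between groups on its own. The part of macrophages in the oxidase values was not tested.

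The order of levels, from the mean of 6 libraries, was Cox4i1, Cox6a2, Cox6b1, Cox7a2, Cox8b, Cox7a1, Cox6a1, Cox8a, Cox7a2l and Cox4i2. Neighbours kept this order in all 6 libraries with 2 exceptions. Cox6b1 exceeded Cox7a2 in 4 of 6 libraries, with means of 1376 and 1299.7 CPM. Cox6a1 exceeded Cox8a in 3 of 6, with means of 368 and 361 CPM. Cox7a2 exceeded Cox8b in every library, although their ranges over the libraries overlapped. The largest step was the last, from 185 CPM for Cox7a2l to 2.89 CPM for Cox4i2.

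By reads, muscle forms outnumbered ubiquitous ones for subunits 6a and 8 but not for subunit 7a, in both genotypes. The ratio of Cox6a2 to Cox6a1 reads was 4.66, 4.29 and 5.30 in GR-cKO replicates 1, 2 and 3, against 5.38, 4.29 and 4.71 in control replicates 1, 2 and 3. The groups overlapped fully, and Cox6a2 made up 82.5 ± 1.53% of the pair in GR-cKO and 82.6 ± 1.63% in control hearts (SD, n = 3 each). This ratio and share are uncertain by any reads Cox6a1 shares with its processed pseudogene. The ratio of Cox8b to Cox8a was 2.95, 2.63 and 3.49 in GR-cKO hearts, against 2.68, 2.89 and 3.03 in controls. The lowest and the highest of the 6 values were both from GR-cKO hearts, and the share of Cox8b was 75.0 ± 2.65% in GR-cKO and 74.1 ± 1.20% in control hearts (SD, n = 3 each). The ratio of Cox7a1 to Cox7a2 was 0.564, 0.684 and 0.620 in GR-cKO hearts, against 0.758, 0.681 and 0.639 in controls. GR-cKO replicate 2 overlapped the controls, and the share of Cox7a1 was 38.3 ± 2.27% in GR-cKO and 40.9 ± 2.09% in control hearts (SD, n = 3 each).

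**Figure D3:**
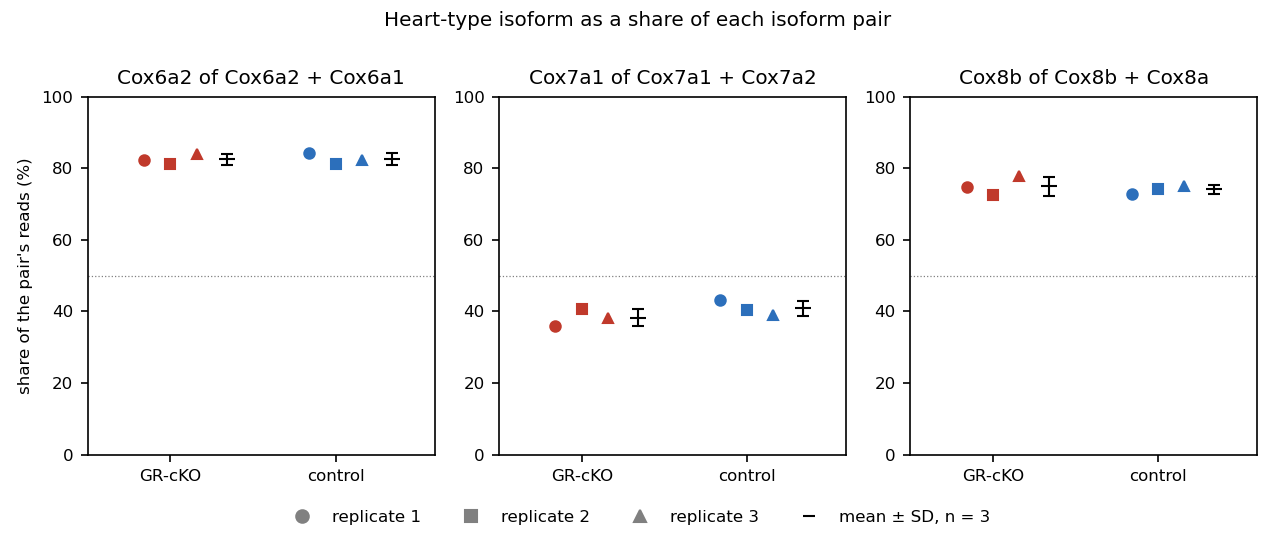
Reads of the heart-type gene as a percentage of the reads of both genes of a pair (y axes, 0 to 100%) in GR-cKO and control hearts. Symbols are libraries by replicate, bars are mean ± SD of 3 libraries, and the dotted line is at 50%. All 6 libraries lie above the line for Cox6a2 and Cox8b and below it for Cox7a1.

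On the log2 scale, ratios differed between genotypes, GR-cKO minus control, by -0.01 (SE 0.130) for Cox6a2 to Cox6a1 and by 0.07 (SE 0.130) for Cox8b to Cox8a. The difference was -0.15 (SE 0.108) for Cox7a1 to Cox7a2 and -0.22 (SE 0.265) for Cox4i2 to Cox4i1. The 2-sided exact permutation p-values for 3 against 3 libraries were 0.7, 0.7, 0.3 and 0.5 in that order, and 0.7 for each after Benjamini-Hochberg adjustment over the 4 ratios. The smallest p this design allows is 0.1. A ratio within a library does not depend on scaling. For Cox7a1 to Cox7a2 the difference was -0.22 when GR-cKO replicate 2 was left out and -0.09 when GR-cKO replicate 1 or control replicate 1 was. The sum of the 3 muscle forms was 63.7 ± 1.14% of the reads of the 6 paired genes in GR-cKO and 64.9 ± 1.15% in control hearts (SD, n = 3 each, exact permutation p = 0.4, 2-sided). Beside these, the ratio of Tnni3 to Tnni1, the adult and fetal cardiac forms of troponin I, was 4.80, 4.84 and 4.65 in GR-cKO hearts, against 5.32, 5.37 and 5.30 in controls. Those groups did not overlap (exact permutation p = 0.1, 2-sided). Tnni3 itself had a log2 fold change of 0.14, with overlapping groups. Tnni1 had one of 0.31, for which edgeR gave an adjusted p of 0.998. Its GR-cKO libraries were all above the controls, against 4.7% of tested genes. The ratio of Slc25a4 to Slc25a5, the heart and proliferative forms of the ATP and ADP carrier, was 25.6 ± 8.14 in GR-cKO and 22.3 ± 3.63 in control hearts (SD, n = 3 each), and these overlapped.

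Single libraries stood out for several members at once. Control replicate 2 was the highest library for 6 of the 10 genes and lay above the gene's mean for 8 of the 9 abundant ones. The exception was Cox7a2l, which was lowest there. The brown fat markers summed to 130 to 174 CPM in GR-cKO and 117 to 280 CPM in control hearts, with 280 CPM in control replicate 2. Of the 5 markers 4 were tested, with 1 positive and 3 negative log2 fold changes, and Adipoq and Plin1 were also highest in control replicate 2. Ucp1 and Adipoq were at 0 in GR-cKO replicate 1, and Adipoq was also at 0 in control replicate 3. Cidea, which the heart also expresses, was at 117 to 167 CPM in the 6 libraries. The part of attached fat in the oxidase values was not tested. Without control replicate 2 the log2 fold change was -0.02 for Cox4i1, -0.12 for Cox7a1 and -0.10 for Cox8a, and each of the 9 abundant genes lay between -0.12 and 0.05. Skeletal muscle, which also uses the muscle forms, had marker sums of 4.36 to 8.44 CPM in GR-cKO and 5.14 to 5.75 CPM in control hearts.

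**Figure D4:**
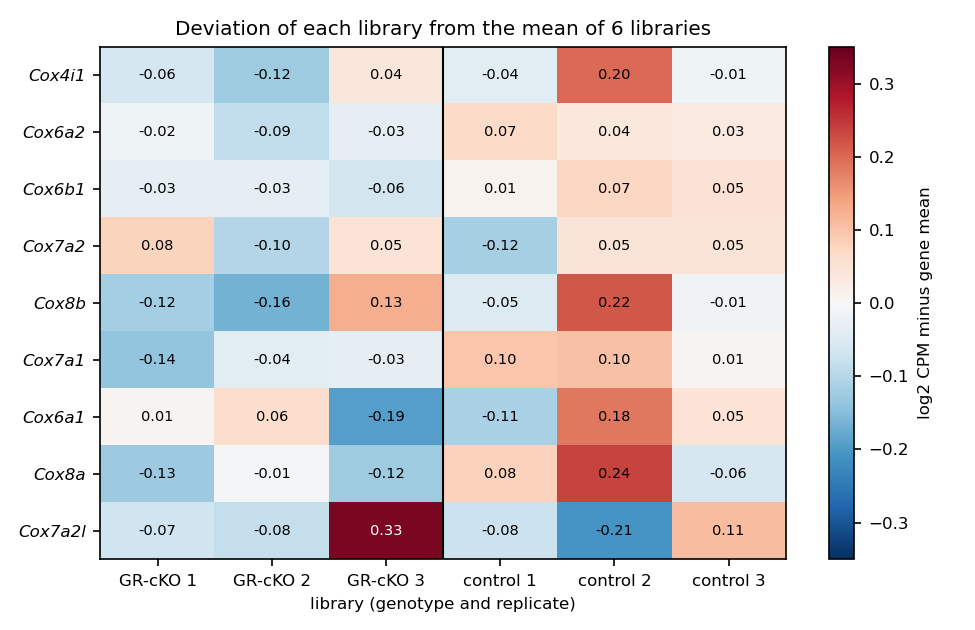
Deviation of log2 CPM from the mean of 6 libraries (colour and printed value) for the 9 abundant isoform genes in rows and the libraries in columns, GR-cKO left of control. Control replicate 2 is above the mean for 8 of 9 genes, and Cox7a2l shows its highest value in GR-cKO replicate 3.

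GR-cKO replicate 3, the library with most Gm42418, split the members. There Cox7a2l was highest and Cox8b was 0.13 above its mean on the log2 scale, while Cox6a1 was 0.19 below it (deviation -0.19). Without this library all 10 log2 fold changes were negative, with -0.20 for Cox8b and -0.16 for Cox4i2, and 0 of the 10 genes passed.

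The remaining nuclear subunits of the complex gave no call either, with 0 of 7 tested members adjusted over all genes. The median of their log2 fold changes was -0.16, with 5 negative and 2 positive, and it was -0.10 without control replicate 2 or with spike-in scaling. At an unadjusted p under 0.05, 2 of the 7 were lower, against 2.13% of all tested genes. Cox7c, a small subunit of the membrane part, was at 720.1 ± 111 CPM in GR-cKO and 869 ± 61.7 CPM in control hearts (SD, n = 3 each), giving a log2 fold change of -0.27 (95% interval -0.52 to -0.02), for which edgeR gave an adjusted p of 0.998. Cox7b, the other, was at 732 ± 56.7 CPM in GR-cKO and 874 ± 119 CPM in control hearts (SD, n = 3 each). Its log2 fold change was -0.26 (95% interval -0.50 to -0.01), for which edgeR gave an adjusted p of 0.998. The groups overlapped for both Cox7c and Cox7b. Every GR-cKO library was below every control for 2 of the 7, Cox5b and Ndufa4, against 5.27% of tested genes. The opposite held for 0 of the 7, against 4.7%. Cox6c, the most abundant, was at 2799 ± 305 CPM in GR-cKO and 2784 ± 125 CPM in control hearts (SD, n = 3 each). Cox6b2, the testis form of subunit 6b, had 89, 135 and 68 reads in GR-cKO and 74, 101 and 78 reads in control replicates 1, 2 and 3, and these overlapped. Cox8c, the third form of subunit 8, had 0 reads in every library, and Cox7b2 had at most 4.

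Of the mitochondrially encoded subunits mt-Co1, which holds the oxygen-reducing centre, was tested. It was at 1469 ± 234 CPM in GR-cKO and 1606 ± 104 CPM in control hearts (SD, n = 3 each), giving a log2 fold change of -0.13. That value was -0.05 without GR-cKO replicate 2 and -0.27 without GR-cKO replicate 3. The genes mt-Co2 and mt-Co3 had at most 7 reads in a library and were not tested. Such counts, beside those of mt-Co1, were not taken to mean absent expression, and their cause was not tested.

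Assembly factors, which insert haem and copper and bring subunits together, included 24 tested members, 13 with negative and 11 with positive log2 fold changes. Their median was -0.02, and 0 of the 24 passed. Higd1a, a small protein of the complex induced by low oxygen and the most abundant of the list, was at 214 ± 26.9 CPM in GR-cKO and 223 ± 29.9 CPM in control hearts (SD, n = 3 each). The smallest p-values belonged to Coa7, at 35.2 ± 3.40 CPM in GR-cKO and 29.9 ± 2.70 CPM in control hearts (SD, n = 3 each), and Taco1, which activates translation of mt-Co1. Taco1 was at 3.97 ± 0.513 CPM in GR-cKO and 5.29 ± 0.496 CPM in control hearts (SD, n = 3 each).

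Of 6 genes linked to the control of Cox4i2, 0 passed. Their log2 fold changes, 2 negative and 4 positive, had a median of 0.09. Chchd2, a mitochondrial protein that also acts in the nucleus, was at 1112.5 ± 275 CPM in GR-cKO and 955 ± 56.7 CPM in control hearts (SD, n = 3 each). Epas1, a factor of the response to low oxygen, was at 140.3 ± 8.19 CPM in GR-cKO and 164 ± 7.33 CPM in control hearts (SD, n = 3 each), giving a log2 fold change of -0.22 (95% interval -0.45 to 0.01).

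The genes most like each muscle form over the 6 libraries were taken from 6113 others with a mean of at least 20 CPM, by Pearson's r of log2 CPM. For Cox6a2 they were Vwf (0.993), Tmem143 (0.993) and Epas1 (0.988). For Cox7a1 they were Slc25a4, the heart form of the ATP and ADP carrier (0.985), Unc50 (0.977) and Dync1li1 (0.975). For Cox8b they were Elp3 (0.992), Ccar1 (0.990) and Actr8 (0.984). For Cox4i2, among 6114 genes, they were Rad54l2 (0.981), Cic (0.976) and Plcb4 (0.973). With 6 points that share scaling and depth, 27 to 116 genes exceeded an r of 0.9 for each of the 4. None of the 10 isoform genes was among the 3 nearest genes of these 4.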

How the data were processed

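The deposited files give counts per Ensembl gene as whole numbers, 1 library to a file, with no scaling or pooling by the authors. Input was 100 ng RNA for QuantSeq 3′ FWD libraries, per the labels' protocols. Per the submitters' processing notes, the build was GRCm38 and the software included STAR 2.5.4a, featureCounts 1.6.2, cutadapt 1.16 and DESeq2 1.18.1. Not given in the sources used here were the annotation release, the strand setting and the handling of reads with several matches.

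Of 52649 rows, 92 ERCC and 7 SIRV spike-in rows, 1.63 to 2.01% of reads, entered neither library sizes nor tests. Symbols came from GENCODE M21 for 52403 of 52550 mouse genes. With edgeR 4.0.16 in R 4.3.3, genes were kept by filterByExpr, scaled by TMM and tested with the robust quasi-likelihood F test, 3 GR-cKO against 3 control libraries. DESeq2 1.42.0 and limma 3.58.1 (voom) were alternatives. The log2 CPM used a prior count of 2. Identity came from global alignment and near copies from blastn 2.17.0+ on annotated transcripts.

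Named genes were the 10 members, Nr3c1, from each further list the most abundant gene and that of smallest p in each direction, a troponin and a carrier pair, and the nearest genes by correlation. Ucp1, Adipoq, Plin1, Cidea, Sftpc, Sftpb, Ager and Gm42418, and Cox8c, Cox7b2 and the untested mitochondrial genes, were named after their values were seen. So were Cox7b, Cox5b and Ndufa4. The members and lists were chosen with earlier results of these data known. No libraries were duplicates: chi-square divided by its degrees of freedom was at least 10.1 for every pair. The p-values measure the spread between these samples, which the labels do not tie to separate animals.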

Additional observations from a re-analysis of the deposited data

How the results depend on the processing

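No oxidase isoform gene was called under any of the 13 alternatives, which were the scalings, no filter, DESeq2, limma voom, the replicate block and leaving out each library. Genes called over the whole table numbered 1 in the edgeR test, 2 with library totals, 10 without a filter and 4 with DESeq2, and 1 to 2 with each library left out. The 2 were reached without GR-cKO replicate 2 and without GR-cKO replicate 3. The log2 fold change of Cox7a2, 0.02 as reported, was -0.0225 with library totals, and with each library left out it ran from -0.0370 to 0.0659, negative without GR-cKO replicate 1 (-0.0151), GR-cKO replicate 3 (-0.00325) and control replicate 1. That of Cox7a2l, 0.12 as reported, ran from -0.0238, without GR-cKO replicate 3, to 0.211. The other 8 genes kept their sign in all 13. The spike-in scaling moved the median of assembly factors to 0.0265, against -0.02 as reported, and it was 0.0159 without control replicate 1. Leaving out GR-cKO replicate 3 moved the median of the genes linked to Cox4i2 to -0.0126, against 0.09. The causes were not tested.

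With each library left out, the log2 ratio difference, GR-cKO minus control, ran from -0.0939 to 0.0750 for Cox6a2 to Cox6a1, positive without GR-cKO replicate 2 (0.0593) and without control replicate 1. It ran from -0.0395 to 0.165 for Cox8b to Cox8a, negative without GR-cKO replicate 3, and from -0.224 to -0.0852 for Cox7a1 to Cox7a2. It ran from -0.366 to -0.0143 for Cox4i2 to Cox4i1, nearest 0 without GR-cKO replicate 3. These exact tests cannot reach 0.05.

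Same-numbered libraries deviated together little, with correlations of 0.0620, 0.0562 and 0.0144 for replicates 1, 2 and 3. The numbers were therefore not taken to pair the libraries. The replicate block called 1 gene and 0 of the 10 members. Adding reads of same-family pseudogenes to the ratios was not run, since the copy found for a paired gene, AC148174.2, had no row among the counts. Depth limits Cox4i2, with at most 72 reads in a library.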
